A study of Sus scrofa with 18 samples.

Results

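The platelet-derived growth factor (PDGF) family comprises the receptors PDGFRA and PDGFRB and the ligands PDGFA, PDGFB, PDGFC and PDGFD. Members were chosen by gene symbol from a list of 6 family genes, put forward with earlier results of these libraries in view. The listing names no contrast, so the calls given here describe the fits and are not independent support for the choice. Of the 6 listed genes, 5 had a row among the 15240 genes of the deposited tables, and PDGFRA is not analysed here. All 5 were followed in every one of the 18 libraries.

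PDGF ligands are secreted dimers that bring receptor chains together, after which the receptors phosphorylate themselves and recruit PI3 kinase, phospholipase C gamma and Ras pathway adaptors. PDGF-A and PDGF-B are released ready to bind, whereas PDGF-C and PDGF-D carry a CUB domain that a protease must remove. In developing kidney, endothelial PDGF-B attracts mesangial cells and pericytes, the contractile support cells of capillaries, which carry PDGFRB.

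Total RNA was sequenced from a purchased line of porcine (Sus scrofa) primary kidney endothelial cells grown in medium with VEGF, EGF and serum. Cells were transfected with Lipofectamine LTX, a lipid reagent, and functional experiments followed 24 hours later. The sample labels gave 5 libraries of St8i6a plasmid, called ST8Sia6 plasmid here, 5 of cell-cell interaction, 5 of GFP control, 2 of wild type and 1 negative sample described as KEC plus all cells. ST8Sia6 is a sialyltransferase, which adds sialic acid to glycans, and GFP is a fluorescent protein that served as plasmid control. The protocols describe both kinds of transfected cells also after co-culture with blood mononuclear cells, but the cell-cell interaction labels do not say which plasmid a library had received. Whether the wild type or KEC plus all cells libraries were exposed to the transfection reagent is likewise not given by the labels. All groups came from the same purchased line, and nothing in the labels ties a library to a culture or a donor, so p-values measure the spread between these libraries, which may be technical.

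Libraries held 14867035 to 33301008 counts. Mitochondrially encoded genes took 17.5% and 16.7% of counts in libraries 4 and 5 labelled ST8Sia6 plasmid and 13.8% to 25.4% in cell-cell interaction libraries 1 to 4, against 1.22% to 4.32% elsewhere. Counts at the porcine ST8SIA6 gene did not follow the labels. They were 59, 0, 3, 0 and 61 in the libraries labelled ST8Sia6 plasmid, 0, 439, 0, 24 and 2 in cell-cell interaction, 0, 27, 0, 5 and 1 in GFP control, 1 and 0 in wild type and 0 in KEC plus all cells. Whether the plasmid sequence would be counted at this gene is not known, so the count is no firm check, and group names below are those of the labels. Of 18 endothelial markers 11 had a row. CDH5, VWF, KDR and TEK are not analysed here, and PECAM1 was at 0.879 to 3.32 CPM in ST8Sia6 plasmid, 2.56 to 4.86 CPM in cell-cell interaction, 1.29 to 2.30 CPM in GFP control, 2.06 to 2.87 CPM in wild type and 2.92 CPM in KEC plus all cells. The keratin KRT8, an epithelial marker, was at 576 to 1522 CPM over the 18 libraries, and COL1A1, a fibroblast collagen, at 2886 to 18340 CPM. The lists were not uniform, since the endothelial marker FLT1 was at 35.1 to 159.9 CPM, the epithelial marker EPCAM at 0.237 to 20.6 CPM, the epithelial marker CLDN7 at most at 0.720 CPM and the fibroblast marker FAP at most at 1.13 CPM. No cell type was assigned from these levels. Wild type library 2 and KEC plus all cells were the most similar pair of libraries, and their counts still differed by more than sampling noise (chi-square per degree of freedom 2.24). The next most similar pair also crossed labels, ST8Sia6 plasmid 1 with GFP control 5 (5.08), ahead of the closest pair within a label, cell-cell interaction 3 and 4 (10.4).

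The 5 genes lie on different chromosomes of build susScr11. PDGFRB (ENSSSCG00000022741.3), the receptor that binds PDGF-B and PDGF-D dimers, spans chromosome 2 from 151155754 to 151192647 on the minus strand in 25 merged exon blocks. PDGFA (ENSSSCG00000007541.4) spans chromosome 3 from 303311 to 323036 on the minus strand in 6 blocks, and PDGFB (ENSSSCG00000033327.2) chromosome 5 from 8986461 to 9007446 on the plus strand in 7 blocks. PDGFC (ENSSSCG00000024960.3) spans chromosome 8 from 45578001 to 45808748, and PDGFD (ENSSSCG00000014994.4) chromosome 9 from 34388636 to 34621244, both on the minus strand in 9 blocks. No other gene of the deposited tables overlaps any of them. RefSeq places STEAP1 within the PDGFB span and DDI1 within the PDGFD span, and the handling of strand in the counting is not given in the sources used here. The counts behind the members were 30 to 2876 per library for PDGFRB, 1012 to 3220 for PDGFA, 916 to 4637 for PDGFB, 357 to 1789 for PDGFC and 1 to 22 for PDGFD.

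PDGFRB varied most between libraries, while the expressed ligands kept to a narrow range. Values are CPM, the share of a library's counts scaled to a fixed total, after TMM scaling over all 18 libraries. The highest library stood 93.1 times above the lowest for PDGFRB, against 2.01 times for PDGFA, 2.69 times for PDGFB and 2.96 times for PDGFC. PDGFD was near the limit of detection throughout.

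PDGFRB, the receptor that marks pericytes, smooth muscle cells and fibroblasts, was at 1.17, 1.76, 1.52, 8.01 and 13.2 CPM in the 5 libraries labelled ST8Sia6 plasmid. It was at 18.6, 17.5, 48.3, 51.9 and 29.8 CPM in the cell-cell interaction libraries, against 1.58, 1.65, 3.53, 4.04 and 1.21 CPM in GFP control. Wild type libraries held 25.9 and 109 CPM and KEC plus all cells 102 CPM. All 5 cell-cell interaction libraries, both wild type libraries and KEC plus all cells lay above every transfected library of the ST8Sia6 plasmid and GFP control labels. Within ST8Sia6 plasmid, library 1 lay just below the lowest GFP control library, libraries 2 and 3 inside the GFP control range and libraries 4 and 5 above it. Group means were 5.12 ± 5.31 CPM in ST8Sia6 plasmid, 33.2 ± 16.2 CPM in cell-cell interaction and 2.40 ± 1.29 CPM in GFP control (SD, n = 5 each), and 67.2 ± 58.5 CPM in wild type (SD, n = 2). By level, GFP control came lowest and ST8Sia6 plasmid next, followed by cell-cell interaction, then by wild type, with KEC plus all cells at the top. Cell-cell interaction overlapped wild type, as ST8Sia6 plasmid did GFP control, and the single KEC plus all cells library lay inside the wild type range. In a bulk library, fewer cells of a type and less RNA per cell cannot be told apart.

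**Figure D1:**
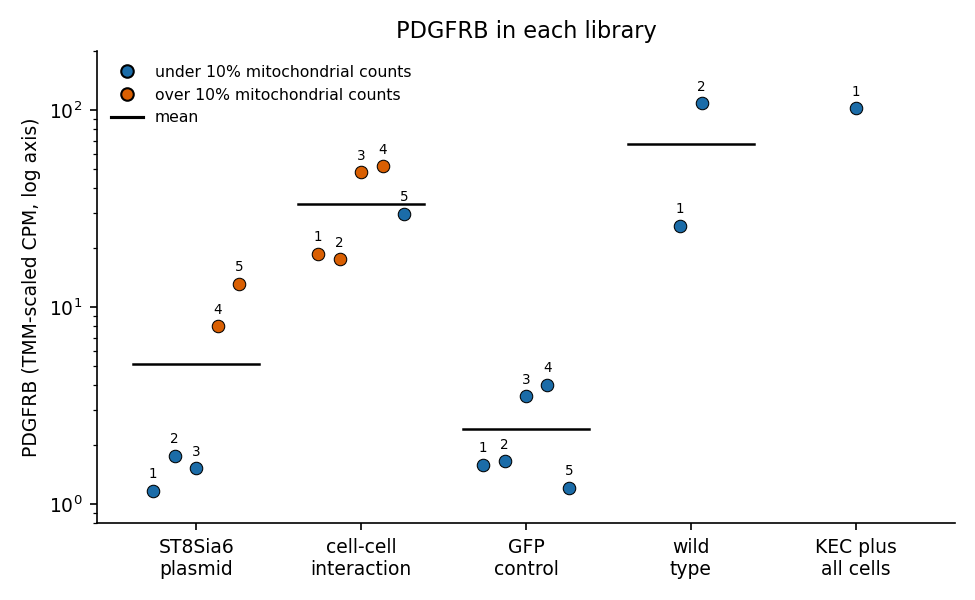
PDGFRB in TMM-scaled CPM on a log axis, 1 point per library by label, with replicate numbers, the group mean as a line and orange points where mitochondrially encoded genes took over 10% of counts. Cell-cell interaction libraries sit between 17.5 and 51.9 CPM and GFP control libraries between 1.21 and 4.04 CPM, and the libraries labelled ST8Sia6 plasmid split between 1.17 to 1.76 CPM and 8.01 to 13.2 CPM.

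PDGFA, whose dimers bind mainly PDGFRA, was the steadiest member. It was at 60.7, 72.5, 80.0, 51.6 and 60.8 CPM in the libraries labelled ST8Sia6 plasmid and at 63.1, 70.9, 76.1, 95.1 and 84.9 CPM in cell-cell interaction. GFP control libraries held 84.2, 87.5, 70.0, 79.2 and 58.4 CPM, wild type 104 and 77.4 CPM, and KEC plus all cells 82.1 CPM. Group means were 65.1 ± 11.1 CPM in ST8Sia6 plasmid, 78.0 ± 12.4 CPM in cell-cell interaction and 75.9 ± 11.8 CPM in GFP control (SD, n = 5 each), and 90.5 ± 18.6 CPM in wild type (SD, n = 2). ST8Sia6 plasmid was lowest by mean and wild type highest, and neighbours in the order overlapped throughout.

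PDGFB, the ligand of PDGFRB that endothelial cells use to recruit pericytes, was at 62.0, 98.7, 75.9, 68.8 and 63.3 CPM in the libraries labelled ST8Sia6 plasmid. It was at 66.4, 58.7, 66.2, 65.2 and 129.6 CPM in cell-cell interaction, against 120.0, 104, 135, 136 and 59.5 CPM in GFP control. Wild type held 149 and 158 CPM and KEC plus all cells 158 CPM. Cell-cell interaction 5 was the high library of its group, and GFP control 5 the low one of its own. Group means were 73.8 ± 15.0 CPM in ST8Sia6 plasmid, 77.2 ± 29.5 CPM in cell-cell interaction and 111 ± 31.6 CPM in GFP control (SD, n = 5 each), and 154 ± 6.22 CPM in wild type (SD, n = 2). These 4 groups stand in their order of level, below KEC plus all cells. All GFP control libraries lay below wild type, and the 3 lower groups overlapped.

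PDGFC, a ligand of PDGFRA that is latent until its CUB domain is cleaved, was at 41.2, 33.0, 39.4, 37.7 and 35.4 CPM in the libraries labelled ST8Sia6 plasmid. It was at 24.8, 22.9, 27.2, 23.8 and 57.1 CPM in cell-cell interaction, against 35.7, 34.0, 67.8, 66.5 and 40.0 CPM in GFP control. Wild type held 44.9 and 26.8 CPM and KEC plus all cells 27.1 CPM. Cell-cell interaction libraries 1 to 4 lay below every GFP control library, whereas library 5 lay among them. Group means were 37.3 ± 3.23 CPM in ST8Sia6 plasmid, 31.1 ± 14.6 CPM in cell-cell interaction and 48.8 ± 16.9 CPM in GFP control (SD, n = 5 each), and 35.8 ± 12.9 CPM in wild type (SD, n = 2). By level, KEC plus all cells was lowest, then cell-cell interaction, wild type, ST8Sia6 plasmid and GFP control, and neighbours in this order overlapped.

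PDGFD, a latent ligand of PDGFRB, gave 9, 1, 2, 3 and 6 counts in the libraries labelled ST8Sia6 plasmid, 2, 8, 6, 8 and 12 counts in cell-cell interaction, 9, 14, 3, 4 and 3 counts in GFP control, 15 and 17 counts in wild type and 22 counts in KEC plus all cells. Scaled to depth these were 0.0352 to 0.868 CPM. Many libraries stood at or near 3 counts, the limit that a count of 0 would allow, so no order among the transfected groups could be read at this depth.

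**Figure D2:**
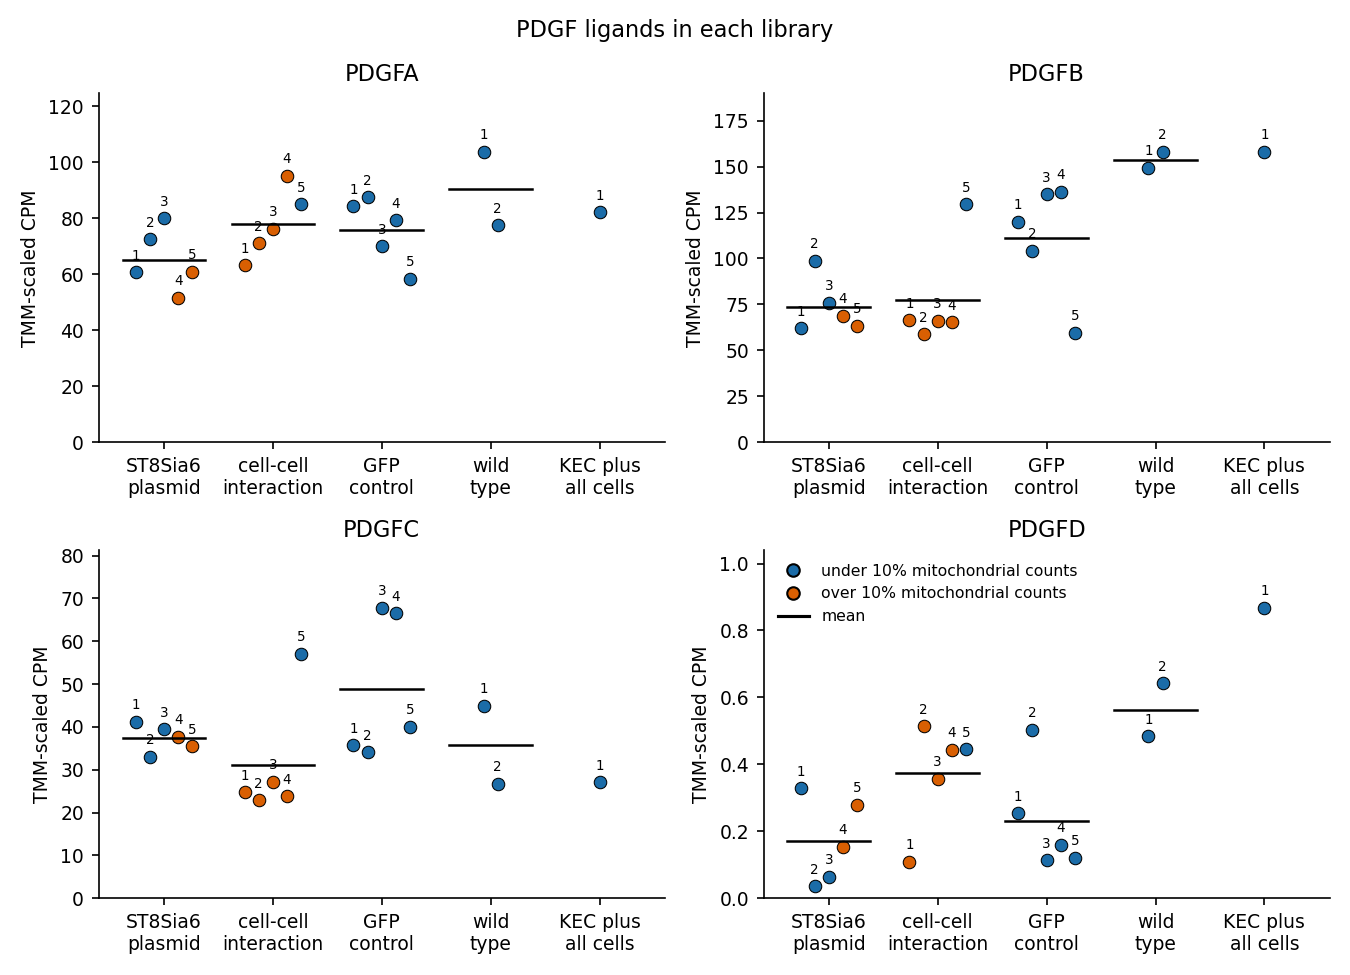
The 4 ligands in TMM-scaled CPM on linear axes, 1 point per library by label, with replicate numbers, group means as lines and orange points for libraries over 10% mitochondrial counts. PDGFA groups overlap, cell-cell interaction 5 stands apart for PDGFB at 129.6 CPM and for PDGFC at 57.1 CPM, and PDGFD stays under 1 CPM.

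To compare the genes with each other, CPM were divided by the deposited gene length in kilobases. On this length-scaled measure the ligand mixture had the same order in every library, PDGFB above PDGFA, PDGFA above PDGFC and PDGFC above PDGFD. PDGFB made up 58.7% to 68.1% of the summed length-scaled ligand level in the libraries labelled ST8Sia6 plasmid, 54.7% to 68.1% in cell-cell interaction, 58.6% to 70.2% in GFP control, 69.5% and 77.2% in wild type and 76.3% in KEC plus all cells. PDGFA made up 17.5% to 38.3% over all 18 libraries and PDGFC 4.53% to 13.7%, while PDGFD reached at most 0.125%. PDGFA's share was highest, at 38.3%, in cell-cell interaction 4. The summed ligand level was 46.7 ± 7.09 length-scaled CPM in ST8Sia6 plasmid and 49.7 ± 14.6 in cell-cell interaction, against 65.1 ± 15.3 in GFP control (SD, n = 5 each) and 83.1 ± 2.84 in wild type (SD, n = 2). Ranges of the 3 transfected groups overlapped.

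The balance of receptor to ligand spanned a wider range than the ligand mixture. The length-scaled ratio of PDGFRB to PDGFB was 0.00732 to 0.0854 in the libraries labelled ST8Sia6 plasmid and 0.0944 to 0.327 in cell-cell interaction, against 0.00542 to 0.0122 in GFP control. It was 0.0712 and 0.282 in wild type and 0.265 in KEC plus all cells. PDGFRB therefore stayed below PDGFB in every library. Averaged over the 18 libraries, PDGFB stood at 39.0 length-scaled CPM, above 92.6% of genes, PDGFA at 14.4, above 77.3%, PDGFC at 5.23, above 52.6%, PDGFRB at 3.98, above 46.6%, and PDGFD at 0.0317, above 0.604%.

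**Figure D3:**
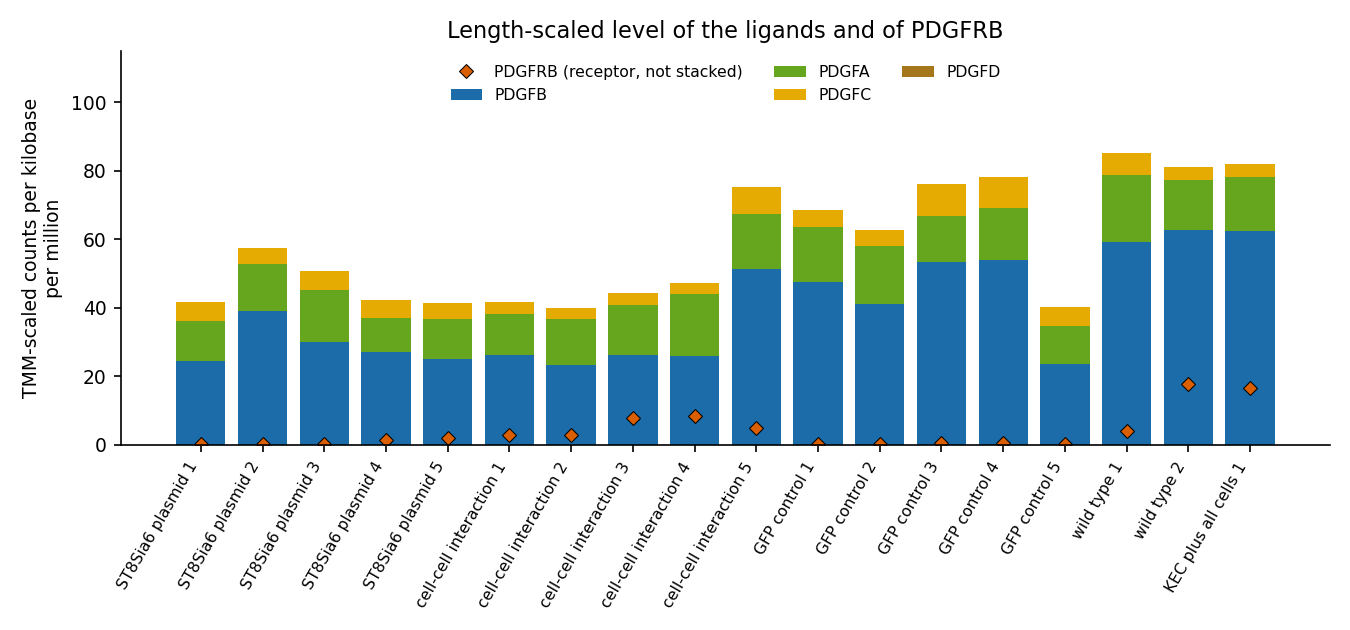
Length-scaled level (TMM-scaled CPM per kilobase) of the 4 ligands stacked for each library, with PDGFRB as diamonds on the same axis. PDGFB forms the largest part of each bar, at 54.7% to 77.2%, and PDGFRB is highest in wild type 2 and KEC plus all cells.

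The first comparison sets the libraries labelled ST8Sia6 plasmid against those labelled GFP control. By the regression described below, the authors' comparisons put ST8Sia6 plasmid 4 and 5 and GFP control 5 on other sides. An effect of the plasmid can therefore not be told apart from such a mix of libraries. None of the 4 family genes tested was called, on a background of 0% of 13840 genes called by edgeR's quasi-likelihood test at an adjusted p under 0.05, with 1367 genes at an unadjusted p under 0.05 and 11 called by DESeq2. PDGFRB averaged 5.12 CPM in the libraries labelled ST8Sia6 plasmid and 2.40 CPM in GFP control, a log2 fold change of 1.12 ± 0.69 (SE, edgeR adjusted p = 0.526) with a 95% interval of -0.39 to 2.64. Without ST8Sia6 plasmid 5 it was 0.39 (adjusted p = 0.870), and limma-voom gave 0.47 (adjusted p = 0.776). With libraries under 10% mitochondrial counts alone, which leaves out ST8Sia6 plasmid 4 and 5, it was -0.67 (adjusted p = 0.931). PDGFB gave -0.57 ± 0.21 (SE, edgeR adjusted p = 0.502), PDGFC -0.36 ± 0.20 (adjusted p = 0.512) and PDGFA -0.20 ± 0.15 (adjusted p = 0.567). The 95% intervals ran from -1.03 to -0.10 for PDGFB, from -0.79 to 0.08 for PDGFC and from -0.52 to 0.12 for PDGFA. Falls down to the lower ends are not excluded. Only the PDGFB interval lay wholly below 0 (edgeR unadjusted p = 0.0217), and PDGFB was not called after adjustment. PDGFD did not pass the filter on low counts. Groups overlapped for all 5 genes, where 1.03% of the genes tested had groups that did not overlap.

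The next comparison sets cell-cell interaction against GFP control. The cell-cell interaction labels do not give the plasmid, so co-culture with blood cells and plasmid cannot be told apart. Wild type libraries, which are no part of this comparison, held 25.9 and 109 CPM of PDGFRB. PDGFRB rose, being 33.2 ± 16.2 CPM in cell-cell interaction and 2.40 ± 1.29 CPM in GFP control (SD, n = 5 each). The log2 fold change was 3.82 ± 0.45 (SE, 95% interval 2.84 to 4.80, edgeR adjusted p = 0.000276), a 14.1-fold difference, with all 5 libraries above every control library. It was 1 of 4 members tested, and the background was wide: 39.5% of 13951 genes were called in either direction, 20.8% as higher, and 24.6% had groups that did not overlap. PDGFA did not pass, at 78.0 ± 12.4 CPM in cell-cell interaction and 75.9 ± 11.8 CPM in GFP control, with a log2 fold change of 0.07 ± 0.14 (edgeR adjusted p = 0.715) and a 95% interval of -0.24 to 0.39.

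PDGFB and PDGFC had lower means in cell-cell interaction without passing the test. PDGFB gave -0.50 ± 0.26 (SE, edgeR adjusted p = 0.156) and PDGFC -0.62 ± 0.30 (SE, edgeR adjusted p = 0.121). Both depended on cell-cell interaction 5. Without that library the log2 fold change was -0.77 for PDGFB (edgeR adjusted p = 0.0125) and -0.96 for PDGFC (edgeR adjusted p = 0.00610), and PDGFB also passed without GFP control 5, at -0.69 (adjusted p = 0.0314). Kept as the lone cell-cell interaction library under 10% mitochondrial counts and assumed to vary like the others, library 5 gave 0.19 for PDGFB and 0.19 for PDGFC, and neither passed.

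Mitochondrial share moved with the label in this comparison, at 3.32% to 25.4% in cell-cell interaction against 1.22% to 2.03% in GFP control. Cell-cell interaction 5, at 3.32%, held 29.8 CPM of PDGFRB. Set alone against GFP control it gave a log2 fold change of 3.60, the lone library being assumed to vary like GFP control. The library most similar to it was wild type 1 (chi-square per degree of freedom 45.8), which held 25.9 CPM of PDGFRB. Mural cell and fibroblast markers, of which 16 of 22 had a row, summed to 14295 to 32864 CPM in GFP control. In cell-cell interaction they summed to 10557 to 16201 CPM in libraries 1 to 4 and to 42476 CPM in library 5. COL1A1, COL1A2 and VIM, averaging 7653, 8528 and 3899 CPM over the 18 libraries, were the largest parts of the sum. RGS5, ABCC9 and KCNJ8, which define pericytes, are not analysed here. Of the 15 mural markers tested, 6 rose and 2 fell, with a median log2 fold change of 0.72, where the median of all tested genes was -0.02. Over all tested genes 39.5% were called in either direction and 20.8% as higher, the shares to set beside each marker count here. Endothelial markers summed to 88.2 to 179.8 CPM in cell-cell interaction and 51.1 to 70.3 CPM in GFP control, and 3 of 6 tested rose and 1 fell. Most of this sum was FLT1, at 67.04 to 159.9 CPM in cell-cell interaction and 35.1 to 46.6 CPM in GFP control. FLT1 is also counted among the family relatives below, so the endothelial sum is not separate from that result. EGFL7 reached at most 6.01 CPM in cell-cell interaction, against 5.08 to 16.2 CPM in GFP control. Kidney epithelial markers summed to 1285 to 2013 CPM in cell-cell interaction and 2291 to 3218 CPM in GFP control, and 1 of 12 tested rose and 8 fell. Leukocyte markers, of which 9 of 20 had a row, summed to 31.6 to 65.9 CPM in cell-cell interaction and 30.5 to 97.9 CPM in GFP control, and CD3D, CD3E and TYROBP are not analysed here. Platelets carry much PDGF-B, but of 9 platelet markers only GP9 had a row, at 1.60 to 5.12 CPM in cell-cell interaction and 2.54 to 8.32 CPM in GFP control. The part of these markers in the PDGFRB result was not tested.

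Cell-cell interaction was also set against the libraries labelled ST8Sia6 plasmid. The cell-cell interaction libraries are those of the previous comparison, and the ST8Sia6 plasmid libraries those of the first, so none of these values is independent. None of 4 members tested was called, where 0.159% of 13849 genes were. PDGFRB averaged 33.2 CPM in cell-cell interaction and 5.12 CPM in ST8Sia6 plasmid, with a log2 fold change of 2.74 ± 0.70 (SE, 95% interval 1.21 to 4.28, edgeR adjusted p = 0.0620). The groups did not overlap, the lowest cell-cell interaction library being at 17.5 CPM and the highest ST8Sia6 plasmid library at 13.2 CPM, which was so for 8.65% of genes tested. The gene did pass with DESeq2 (adjusted p = 0.00103), with limma-voom (adjusted p = 0.0477) and with all groups in 1 edgeR fit (adjusted p = 0.0309). It also passed without ST8Sia6 plasmid 5, at 3.48 (edgeR adjusted p = 0.0216), and without cell-cell interaction 5, at 2.79 (adjusted p = 0.0330).

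No ligand passed here. PDGFA gave a log2 fold change of 0.29 ± 0.14 (SE, edgeR adjusted p = 0.183), PDGFB 0.10 ± 0.22 (adjusted p = 0.776) and PDGFC -0.23 ± 0.24 (adjusted p = 0.499). Their 95% intervals ran from -0.03 to 0.61 for PDGFA, from -0.40 to 0.59 for PDGFB and from -0.76 to 0.30 for PDGFC. PDGFC passed without cell-cell interaction 5, at -0.57 (adjusted p = 0.0267).

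GFP control was last set against wild type, whose labels do not say how the cells were handled. The GFP control libraries are those of the earlier comparisons, so the PDGFRB results here and in cell-cell interaction over GFP control are not independent. PDGFRB fell, being 2.40 ± 1.29 CPM in GFP control (SD, n = 5) and 67.2 ± 58.5 CPM in wild type (SD, n = 2). The log2 fold change was -4.83 ± 0.58 (SE, 95% interval -6.17 to -3.49, edgeR adjusted p = 0.00914), so that GFP control stood 28.4-fold below wild type. It was 1 of 5 members tested, where 3.16% of 14496 genes were called and 1.97% were called lower. The 2 wild type libraries differed from each other, at 25.9 and 109 CPM. Without wild type 2 the log2 fold change was -3.42 (edgeR adjusted p = 0.0620), without wild type 1 it was -5.52 (adjusted p = 0.00424), and without GFP controls 1 and 2, which held the most leukocyte transcripts among the libraries of this comparison at 60.03 and 97.85 summed CPM, it was -4.52 (adjusted p = 0.0787). With 1 wild type library left, the spread comes from the GFP control libraries alone, and the lone library is assumed to vary like them.

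No ligand was called between GFP control and wild type. PDGFB gave -0.48 ± 0.28 (SE, edgeR adjusted p = 0.390), with every GFP control library below both wild type libraries. Groups did not overlap, counting both directions, for 25.6% of genes tested. PDGFD, tested only here, gave -1.25 ± 0.63 (adjusted p = 0.323), PDGFA -0.25 ± 0.19 (adjusted p = 0.507) and PDGFC 0.44 ± 0.34 (adjusted p = 0.520). Mural markers summed to 14295 to 32864 CPM in GFP control and 30819 to 42064 CPM in wild type. Of 16 tested 5 fell and none rose, with a median log2 fold change of -1.20. Of all genes tested 3.16% were called, and 1.97% were called lower. Of 12 kidney epithelial markers tested 3 rose and none fell, with a median of 0.59. Of 9 endothelial markers tested 1 fell, and of 9 leukocyte markers 1 rose. Of 13 mitochondrially encoded genes 2 fell, with a median of -1.62. The part of these genes in the PDGFRB result was not tested.

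**Figure D4:**
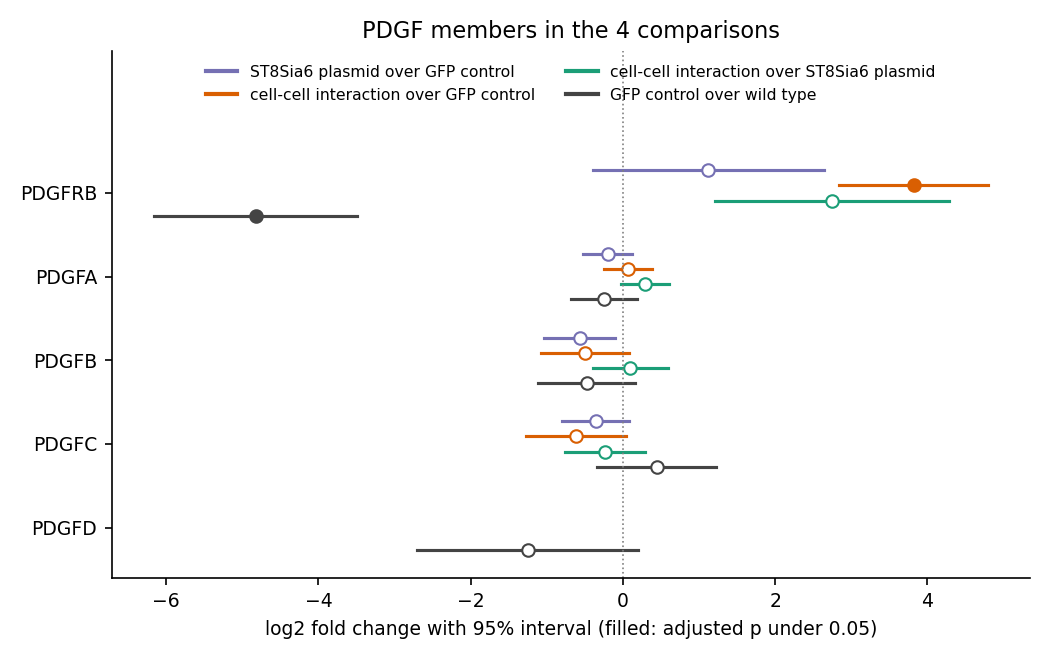
Log2 fold change of each tested member in 4 comparisons, named in the legend with the numerator first, with 95% intervals from edgeR's quasi-likelihood fit and filled points where the adjusted p was under 0.05. Filled points appear for PDGFRB alone, at 3.82 for cell-cell interaction over GFP control and -4.83 for GFP control over wild type.

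The authors' deposited table holds 4 comparisons of its own, each given as the first-named side over the second. For PDGFRB the authors' deposited table gives -2.41 for GFP control over Cell cell interaction GFP (FDR 4.59e-10), -4.78 for St8i6a plasmid over Cell cell interaction st8i6a (FDR 1.10e-30) and -1.44 for Cell cell interaction GFP over Cell cell interaction st8i6a (FDR 0.00166). PDGFRB is thus highest on the side named Cell cell interaction st8i6a. For St8i6a plasmid over GFP control the authors' deposited table gives -0.92 (FDR 0.168), opposite in sign to the 1.12 found by the labels. By FDR under 0.05 the authors' deposited table calls 49.5%, 25.2%, 4.74% and 1.37% of 15240 genes in these 4 comparisons, in the order just given.

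Among the ligands, the authors' deposited table calls PDGFB at 0.95 (FDR 0.000822), PDGFC at 0.76 (FDR 0.0226) and PDGFA at 0.38 (FDR 0.0308) for GFP control over Cell cell interaction GFP. PDGFA at -0.41 (FDR 0.0375) and PDGFD at -1.65 (FDR 0.0329) are called for St8i6a plasmid over Cell cell interaction st8i6a in the authors' deposited table, and PDGFA at -0.55 (FDR 0.0162) for Cell cell interaction GFP over Cell cell interaction st8i6a. No member is called for St8i6a plasmid over GFP control in the authors' deposited table.

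The sides of those comparisons did not follow the sample labels. In a regression of the authors' log2 fold changes on the log2 CPM of the 18 libraries over all genes (R squared 0.871 to 0.941), weights beyond 0.15 in size on the St8i6a plasmid side fell on ST8Sia6 plasmid 1 to 3 and also on GFP control 5. On the GFP control side they fell on GFP control 1 to 4. On the Cell cell interaction GFP side they fell on ST8Sia6 plasmid 4 and 5 with cell-cell interaction 1 and 2, and on the Cell cell interaction st8i6a side on cell-cell interaction 3 to 5 with wild type 1. Library by library, PDGFRB was 8.01 and 13.2 CPM in ST8Sia6 plasmid 4 and 5, next to 18.6 and 17.5 CPM in cell-cell interaction 1 and 2. Which division is right could not be settled from the labels. In the comparisons by label, leaving out GFP control 5 gave PDGFRB 0.96 for ST8Sia6 plasmid over GFP control (edgeR adjusted p = 0.501) and 3.63 for cell-cell interaction over GFP control (edgeR adjusted p = 0.000681).

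Genes around the receptor were described for cell-cell interaction over GFP control in lists chosen with earlier results of these libraries known. Of 8 ligand-processing and co-receptor genes tested 1 rose and 3 fell, with a median log2 fold change of -0.46. A2M, whose protein binds and carries PDGF-B, rose by 3.30 ± 0.49 (SE, edgeR adjusted p = 0.000878), being 96.6 ± 91.9 CPM in cell-cell interaction and 9.96 ± 1.34 CPM in GFP control (SD, n = 5 each). PLAT, the tissue plasminogen activator that cleaves latent PDGF-C, fell to 131.5 ± 98.9 CPM in cell-cell interaction, against 465.9 ± 116 CPM in GFP control (log2 -1.80, adjusted p = 0.00509). NRP1, a PDGF co-receptor, fell to 25.3 ± 19.8 CPM in cell-cell interaction, against 107 ± 47.4 CPM in GFP control (log2 -2.04, adjusted p = 0.00906). SPARC, a matrix protein that binds PDGF-B and PDGF-AB, fell by 1.33 on the log2 scale (adjusted p = 0.0355). Its groups overlapped, at 778 to 3302 CPM in cell-cell interaction and 1955 to 5533 CPM in GFP control.

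Of 32 receptor signalling genes tested 3 rose and 8 fell, with a median of -0.19. Over all 13951 genes tested 39.5% were called, 2899 genes as higher and 2611 as lower, the background for each count in this paragraph. PIK3R1, the regulatory subunit of PI3 kinase that docks on the receptor, fell to 61.5 ± 14.3 CPM in cell-cell interaction, against 163 ± 37.8 CPM in GFP control (log2 -1.38 ± 0.19, edgeR adjusted p = 0.000663). MAP2K1, a kinase of the ERK cascade, fell by 0.68 on the log2 scale (edgeR adjusted p = 0.00175) and its target MAPK3 by 0.83 (adjusted p = 0.00339). Of 22 genes that attenuate or organise the receptor 3 rose and 4 fell, with a median of -0.14. DUSP6, an ERK phosphatase induced by growth factors, fell by 1.35 (adjusted p = 0.00722), the scaffold NHERF1, which binds the PDGFRB tail, by 0.97 (adjusted p = 0.00419) and SPRED2, a Ras pathway inhibitor, by 0.36 (adjusted p = 0.0140), while the ciliary gene IFT88 rose by 0.89 (adjusted p = 0.00151). Of 15 early response genes tested 5 rose and none fell, with a median of 0.14.

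Relatives of the family include VEGF ligands, their receptors and other growth factor receptors of the PDGF receptor class. Of 8 tested 4 rose and 1 fell, with a median of 0.68. CSF1, the ligand of a receptor akin to the PDGF receptors, rose to 299.6 ± 74.9 CPM in cell-cell interaction, against 132 ± 20.4 CPM in GFP control (log2 1.21 ± 0.18, edgeR adjusted p = 0.000973). FLT1, a VEGF receptor, rose by 1.18 (adjusted p = 0.00339) and VEGFC, a lymphatic growth factor, by 0.94 (adjusted p = 0.00242). FLT3, another receptor of the PDGF receptor class, fell to 1.08 ± 0.44 CPM in cell-cell interaction, against 6.44 ± 3.27 CPM in GFP control (log2 -2.53, adjusted p = 0.00172). All of these counts stand on the 39.5% of genes called in this comparison.

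In the comparisons of ST8Sia6 plasmid with GFP control and of cell-cell interaction with ST8Sia6 plasmid, edgeR called no gene of these lists. At an unadjusted p under 0.05 stood 3 of 8 processing, 3 of 32 signalling, 3 of 22 attenuation, 2 of 15 early response and 2 of 9 family genes for ST8Sia6 plasmid over GFP control, and 2, 10, 6, 3 and 3 genes of these lists for cell-cell interaction over ST8Sia6 plasmid. Over all genes tested, 1367 of 13840 and 4510 of 13849 stood there in these comparisons. For GFP control over wild type 1 processing gene fell, A2M at -5.19 ± 0.40 (SE, edgeR adjusted p = 0.00225), being 9.96 CPM in GFP control and 362 CPM in wild type. Of the family relatives 3 of 9 fell there, FLT1 at -1.70 (adjusted p = 0.00687), CSF1 at -1.14 (adjusted p = 0.0353) and VEGFC at -0.82 (adjusted p = 0.0372), where 1.97% of all genes tested were called lower. No signalling, attenuation or early response gene was called.

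The genes most like each member were found by Pearson's r of log2(CPM + 0.5) over the 18 libraries among 10714 genes with a symbol and a mean of at least 1 CPM. These are descriptions over libraries that share groups, depth and mitochondrial share. PDGFRB was most like NID1, a basement membrane protein (r = 0.98), SLITRK2, a neuronal membrane protein (r = 0.97), GRIP1, a scaffold protein (r = 0.97), and STAC, an adaptor protein (r = 0.96), with Spearman's rank correlations of 0.90, 0.96, 0.94 and 0.88. Without wild type 2 and KEC plus all cells, the libraries farthest from the PDGFRB median, r was 0.97, 0.96, 0.95 and 0.95. NID1 averaged 3.01 CPM in the libraries labelled ST8Sia6 plasmid and 21.8 CPM in cell-cell interaction, against 0.964 CPM in GFP control and 41.2 CPM in wild type, with 64.2 CPM in KEC plus all cells. GRIP1 kept the same order over a smaller range, at 7.11 CPM in ST8Sia6 plasmid and 12.8 CPM in cell-cell interaction, against 6.75 CPM in GFP control and 15.3 CPM in wild type.

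**Figure D5:**
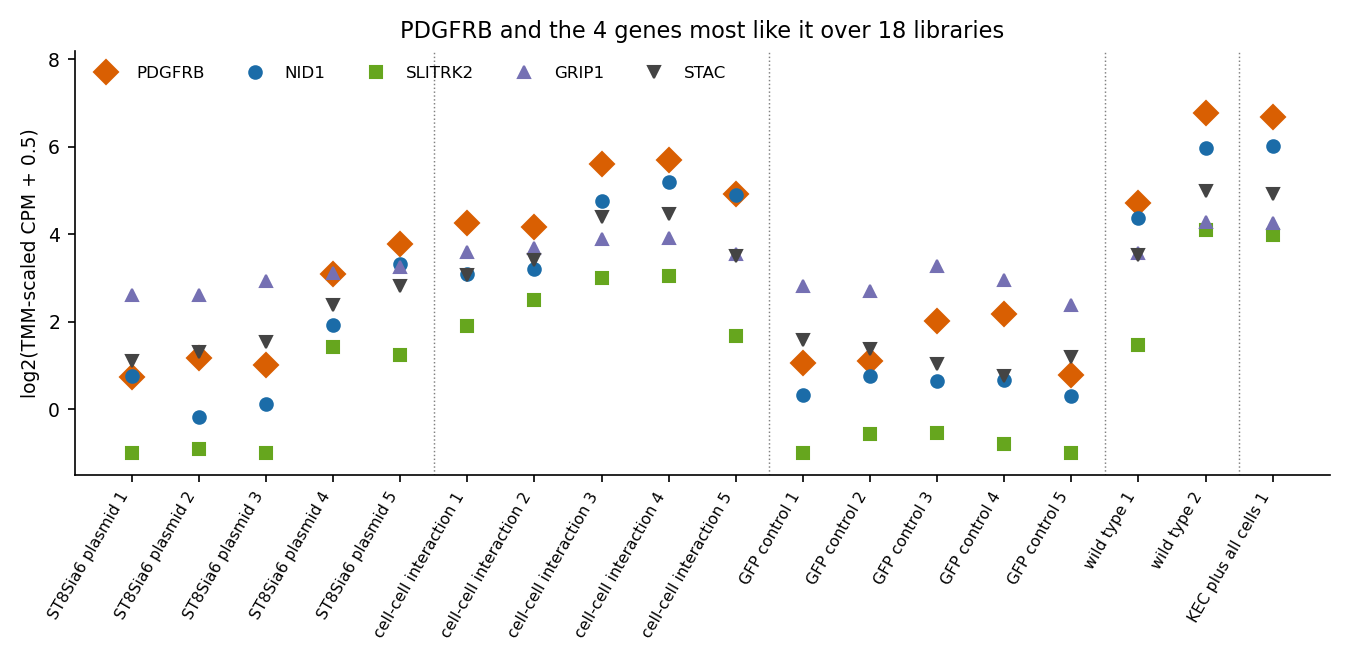
Level of PDGFRB and of the 4 genes with the highest correlation to it, as log2(TMM-scaled CPM + 0.5), for each of 18 libraries, with dotted lines between labels. All 5 genes are higher in ST8Sia6 plasmid libraries 4 and 5 than in libraries 1 to 3, and GRIP1 spans the smallest range.

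PDGFB was most like ARHGAP1 (r = 0.94), TLN1, the integrin adaptor talin, CYLD, a deubiquitinase, and COL4A2, a basement membrane collagen (r = 0.93 each). Without wild type 2 and KEC plus all cells these were 0.91, 0.91, 0.90 and 0.90. COL4A2 averaged 1955 CPM in ST8Sia6 plasmid and 1959 CPM in cell-cell interaction, against 3011 CPM in GFP control and 4673 CPM in wild type. PDGFC was most like SUN2, a nuclear envelope protein (r = 0.94), HSPA5, the endoplasmic reticulum chaperone BiP, EOGT, a glycosyltransferase of the same compartment, and TSPAN13, a tetraspanin (r = 0.92 each), and r was 0.90, 0.85, 0.88 and 0.86 without GFP controls 3 and 4. PDGFA was most like TCF7, a Wnt pathway transcription factor, EML1, a microtubule binding protein, FHOD3, an actin regulator (r = 0.89 each), and PMEPA1, an inhibitor of TGF-beta signalling (r = 0.87), and r was 0.79 to 0.85 without ST8Sia6 plasmid 4 and wild type 1. The 4 lists shared no gene.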

How the data were processed

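The authors' tools were STAR 2.7.10a and FastQC 0.11.5, then edgeR 3.40.2, with counting by featureCounts (Subread 2.0.3) on build susScr11, per the submitters' processing notes. For the annotation, strand and multiply mapped reads, the setting is not given in the sources used here. The deposited counts are raw whole numbers per gene, alike in 2 deposited tables of 15240 genes with a smallest total of 23. The log2 values deposited by the authors are log2 CPM and log2 fold changes, with a p-value and FDR per comparison and a signed fold change as a score. The other deposited column used is gene length in bases. Of the genes, 11927 had a deposited symbol and 65 were named from an identifier table.

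Groups follow the sample labels, and replicate numbers follow sample order and pair nothing. Each comparison used the libraries of its labels, filterByExpr, TMM and edgeR's robust quasi-likelihood test (in R 4.3.3, limma 3.58.1 and edgeR 4.0.16), two-sided, with Benjamini-Hochberg adjustment over all tested genes at 0.05. SE came from the F statistic and 95% intervals from the fit's degrees of freedom. Length-scaled values are TMM-scaled CPM over deposited length. Scripts were tested on simulated counts.

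The members and gene lists were chosen with earlier results of these data known. Named genes were the members, the 4 genes most like each member averaging 1 CPM or more, and the 4 genes of lowest p (3 for signalling) of the processing, attenuation and relatives lists in cell-cell interaction over GFP control. Alternatives were DESeq2 1.42.0 and limma-voom as tests, 1 fit over all groups, RLE scaling, a mean of 5 CPM or no minimum as filter, a size limit of 1 on the log2 fold change, libraries under 10% mitochondrial counts, no GFP controls 1 and 2, each library left out, and pseudocounts of 0.1 and 1 for likeness. Limits from a count of 0 use 3 counts, for counting error alone. KEC plus all cells has 1 library and no test.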

Additional observations from a re-analysis of the deposited data

Results flagged for a closer look

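In the 15 groups of 5 libraries examined for the members (chance marks about 1 in 20 such groups), 2 held a library that stood apart, and both times it was cell-cell interaction 5. It held 129.6 CPM of PDGFB, with the others at 58.7 to 66.4 CPM, and 57.1 CPM of PDGFC, with the others at 22.9 to 27.2 CPM. The same library had 3.32% mitochondrial counts, with the others of its label at 13.8% to 25.4%.

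KEC plus all cells, which enters no comparison, held 102 CPM of PDGFRB, 158 CPM of PDGFB and 0.868 CPM of PDGFD, each above every GFP control library. PDGFRB and PDGFB lay inside the wild type ranges, and PDGFD lay above the wild type values of 0.483 and 0.642 CPM. Wild type 2 was the library most similar to it (chi-square per degree of freedom 2.24).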

How the results depend on the processing

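The rise of PDGFRB in cell-cell interaction over GFP control passed in all 18 alternatives (log2 3.47 to 4.08). Of these, 1 kept a lone cell-cell interaction library, under the mitochondrial limit, assumed to vary like GFP control. The fall of PDGFRB in GFP control over wild type passed in 12 of 14, of which 1 had a lone wild type library, likewise assumed to vary like GFP control. Genes called moved by over 1.5 times as follows. For ST8Sia6 plasmid over GFP control DESeq2 called 11. For cell-cell interaction over GFP control, libraries under 10% mitochondrial counts gave 140 and the fold limit 2345. For cell-cell interaction over ST8Sia6 plasmid, at least 5 CPM gave 112, DESeq2 2705, limma-voom 337, all groups in 1 fit 1320 and libraries under 10% mitochondrial counts 2, and each of these except the filter at 5 CPM called 1 member, PDGFRB, with cell-cell interaction 5 as a lone library under the mitochondrial limit, assumed to vary like the ST8Sia6 plasmid libraries. For GFP control over wild type, at least 5 CPM gave 304, DESeq2 1410 and omission of GFP controls 1 and 2 together 27, with 0 members.

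Leaving out each library gave 0 to 1 genes and 0 members for ST8Sia6 plasmid over GFP control, 4099 to 7130 genes and 1 to 3 members for cell-cell interaction over GFP control, 0 to 3308 genes and 0 to 2 members for cell-cell interaction over ST8Sia6 plasmid, and 65 to 407 genes and 0 to 1 members for GFP control over wild type. The counts of 2806 and 3308 came without ST8Sia6 plasmid 5 and without cell-cell interaction 5.

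Signs that turned, none of them passing, were those of PDGFRB at -0.67 for ST8Sia6 plasmid over GFP control, PDGFB at 0.19 and PDGFC at 0.19 for cell-cell interaction over GFP control, and PDGFC at 0.50 for cell-cell interaction over ST8Sia6 plasmid, all with libraries under 10% mitochondrial counts. With each library left out, PDGFA ran from -0.047 to 0.135 for cell-cell interaction over GFP control (negative without GFP control 5 and without cell-cell interaction 4, at -0.04) and PDGFB from -0.17 (without cell-cell interaction 5) to 0.22 for cell-cell interaction over ST8Sia6 plasmid. The cause was not tested. All 16 likeness values stayed within their 95% interval. No paired analysis was possible because replicate numbers follow sample order. The mitochondrial limit takes no library from GFP control or wild type, and at least 5 CPM leaves PDGFRB untested in ST8Sia6 plasmid over GFP control. PDGFD's 1 to 22 counts limit it to description.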
